A study of Mus musculus with 5 samples.

Results

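Globins and erythroid genes were followed in RNA from the hearts of neonatal mice with and without the long non-coding RNA Charme. The 9 genes were chosen by name as the adult alpha globins Hba-a1 and Hba-a2, the adult beta globins Hbb-bs and Hbb-bt, the embryonic beta-like globin Hbb-y, and the erythroid genes Alas2, Slc4a1, Epb42 and Ahsp. Of the 49671 genes with a line in the deposited counts, 8 were these genes, and Ahsp was not analysed here. Of the 8, 6 had at least 10 counts in at least 2 pools and were among the 14880 genes tested, while Hbb-y and Epb42 stayed below that limit.

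RNA-seq libraries selected for polyadenylated RNA were made from whole hearts of C57BL6/J mice at postnatal day 2, and hearts of littermates were pooled by genotype. The 3 CharmeWT pools held 9 wild-type hearts each, and the 2 CharmeKO pools held 3 hearts each from mice in which a polyadenylation signal had been inserted into the Charme locus to stop its transcription. Genotype and the number of hearts per pool therefore cannot be told apart, and p-values measure the spread between these 5 pools only. No sex is given by the labels, and whether blood was washed out of the hearts is not given in the sources used here.

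Haemoglobin is assembled from alpha-like and beta-like globin chains and haem, and its messenger RNA makes up much of the RNA of reticulocytes, young red cells that have lost their nucleus but still hold RNA and circulate in the blood. Erythroblasts, the nucleated precursors, reside in liver, spleen and marrow around birth and express in addition the erythroid transcription factors and the genes of the red cell membrane. Embryonic globins belong to the primitive red cells of the early embryo, which are replaced by definitive red cells before birth.

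The 5 globins lie in the alpha cluster on chromosome 11 and the beta cluster on chromosome 7 of GRCm38. Hba-a1 (ENSMUSG00000069919) spans chr11:32283511-32284465 and Hba-a2 (ENSMUSG00000069917) chr11:32296489-32297298, both on the plus strand. On the minus strand, Hbb-bs (ENSMUSG00000052305) spans chr7:103826534-103828096, Hbb-bt (ENSMUSG00000073940) chr7:103812524-103813996 and Hbb-y (ENSMUSG00000052187) chr7:103851749-103853216. The paired adult copies are nearly identical in their coding sequence, which bears on every count given here. Hba-a1 and Hba-a2 differed at 1 of 429 coding bases, C381T, and Hbb-bs and Hbb-bt at 1 of 444, C417T, with positions counted from 1 at the first base of the start codon and the first gene's base written first. These 31-base stretches of the last exon are shown because each holds the one coding base that tells a pair apart, which stands in capitals:
Hba-a1, chr11:32284328-32284358, plus strand: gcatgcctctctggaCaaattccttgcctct
Hba-a2, chr11:32297145-32297175, plus strand: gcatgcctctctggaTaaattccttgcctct
Hbb-bs, chr7:103826677-103826707, minus strand: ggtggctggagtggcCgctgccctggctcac
Hbb-bt, chr7:103812668-103812698, minus strand: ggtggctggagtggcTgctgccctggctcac

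The deposited values count uniquely mapped fragments, so that a fragment lying wholly in sequence shared by both copies was not counted for either. Over all 150-base windows of the spliced transcript, the read length used, 48.4% of those of Hba-a1 and 65.7% of those of Hba-a2 were found in the other copy, against 58.7% for Hbb-bs and 50.7% for Hbb-bt. Over 300-base windows, which stand for a longer fragment, these shares were 29.0%, 45.5%, 39.8% and 32.4%. Hbb-y was different, with 114 coding bases unlike Hbb-bs (74.3% identical) and no shared window. The counts of the adult globins are therefore those of the part of each transcript that can be told apart, and comparisons of one gene between pools are firmer than the order of levels between the copies.

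The promoters of the adult globins, Hbb-y and Alas2 are shown next as a description. The part that their motifs play in the levels was not tested. Each line gives the 150 bases before the RefSeq transcription start on GRCm38.p6. Capitals mark matches on either strand, and matches that overlap run together. The motif of GATA factors was searched as AGATAA and its forms that begin with T, end with G or both. The core motif of KLF factors was searched as CACCC, that of NF-E2 as TGAGTCA, the TATA box variant of globin genes as ATAAA, and the box bound by NF-Y as CCAAT:
Hba-a1, chr11:32283522-32283671, plus strand: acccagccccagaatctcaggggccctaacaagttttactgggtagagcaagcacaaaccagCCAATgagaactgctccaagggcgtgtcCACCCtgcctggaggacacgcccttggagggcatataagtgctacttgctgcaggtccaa
Hba-a2, chr11:32296342-32296491, plus strand: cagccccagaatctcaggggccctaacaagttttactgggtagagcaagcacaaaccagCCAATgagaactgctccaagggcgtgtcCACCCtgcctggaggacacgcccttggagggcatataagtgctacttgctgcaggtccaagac
Hbb-bs, chr7:103827929-103828078, minus strand: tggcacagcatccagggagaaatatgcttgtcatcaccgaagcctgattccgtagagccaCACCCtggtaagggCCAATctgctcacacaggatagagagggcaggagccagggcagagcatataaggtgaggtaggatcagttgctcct
Hbb-bt, chr7:103813924-103814073, minus strand: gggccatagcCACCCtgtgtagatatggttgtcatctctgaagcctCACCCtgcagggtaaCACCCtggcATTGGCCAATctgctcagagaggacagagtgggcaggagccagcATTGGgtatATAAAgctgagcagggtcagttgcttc
Hbb-y, chr7:103853208-103853357, minus strand: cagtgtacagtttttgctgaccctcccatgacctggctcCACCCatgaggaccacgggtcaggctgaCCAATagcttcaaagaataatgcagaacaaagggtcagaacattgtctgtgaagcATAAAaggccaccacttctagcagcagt
Alas2, chrX:150547267-150547416, plus strand: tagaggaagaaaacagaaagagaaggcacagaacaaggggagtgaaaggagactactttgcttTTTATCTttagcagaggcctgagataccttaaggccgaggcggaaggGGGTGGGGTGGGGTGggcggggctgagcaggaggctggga

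Within the stretches shown, Hba-a1 and Hba-a2 each held CCAAT, at -88 and -91 from the start, and CACCC, at -60 and -63. Hbb-bs held 1 CACCC at -90 and 1 CCAAT at -76, while Hbb-bt held 3 matches of each and the ATAAA box at -27. Hbb-y held 1 CACCC at -111, 1 CCAAT at -83 and the ATAAA box at -28. Alas2 held no CCAAT, but an ATAAA match at -87 that overlapped a GATA match at -86. It also held 3 CACCC matches on the opposite strand between -40 and -30. Of 32851 RefSeq promoters in windows from 250 bases before to 50 after the start, CACCC was found in 57.5%, CCAAT in 37.4%, ATAAA in 40.0%, the GATA motif in 29.8% and NF-E2 in 5.202%, so that most of these matches are common. Of the 9 genes, 7 had an entry in the promoter table.

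Depth was alike between genotypes, with 17181107 to 20145610 counts on genes in the CharmeWT pools and 16721055 and 21646378 in the CharmeKO pools. Charme itself had 810, 183 and 276 counts in CharmeWT pools 1 to 3 and 57 and 79 in CharmeKO pools 1 and 2, so that both CharmeKO pools lay below every CharmeWT pool, as labelled. Both CharmeKO pools stood apart in other respects. In CharmeKO pool 1, 21.1% of counts came from mitochondrially encoded genes, against 10.8% to 11.1% in CharmeWT. In CharmeKO pool 2, 2.58% came from 9 salivary gland genes, of which 7 were tested and 6 were called higher. This list summed to 0.234 to 1.15 FPKM in CharmeWT and to 153 and 11533 FPKM in CharmeKO pools 1 and 2, and its most abundant gene, Bpifa2, had no count in any CharmeWT pool. The results below are therefore also given without each CharmeKO pool, and the part that these 2 features play in them was not tested.

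Each of the 4 adult globins had a higher level in both CharmeKO pools than in any CharmeWT pool. Both alpha globins and the beta globin Hbb-bt were called, Hbb-bs and the haem enzyme gene Alas2 had their highest levels in the same 2 pools without passing the test, and Slc4a1 did not separate the genotypes. A gene was called when its adjusted p in the edgeR quasi-likelihood test was under 0.1 and its mean level was at least 1 FPKM in either genotype. FPKM are fragments per kilobase of exon, relative to the counted fragments of the pool, after scaling by TMM (trimmed mean of M-values). Of the 6 genes tested, 3 were called higher and 0 lower in CharmeKO, while 1.53% of all genes tested were called higher and 0.524% lower. Both CharmeKO pools lay above every CharmeWT pool for 5 of the 6, against 17.8% of all genes tested. In whole hearts, a larger number of red cells and more of an mRNA per red cell cannot be told apart.

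**Figure D1:**
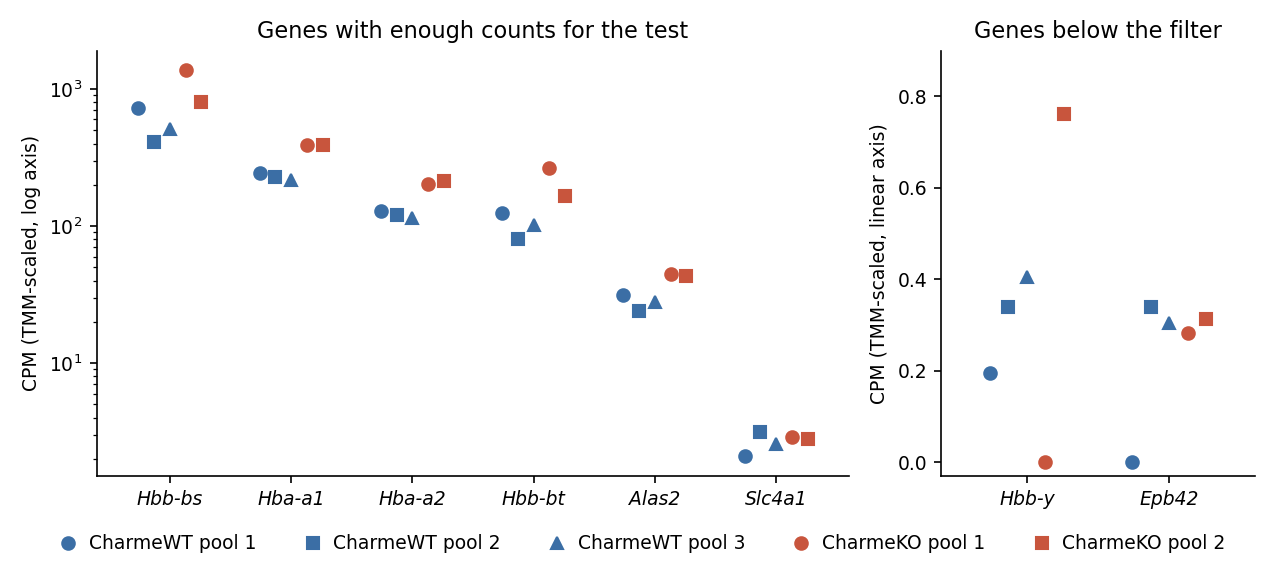
Level of each gene in each of the 5 pools, in CPM (counts scaled to the depth of the pool after TMM), on a log axis for the 6 genes tested and on a linear axis for the 2 below the limit. CharmeKO pools (red) lie above all CharmeWT pools (blue) for the 4 adult globins and Alas2, and among them for Slc4a1.

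The alpha globins gave the most even values. Hba-a1 reached 301, 280 and 269 FPKM in CharmeWT pools 1 to 3 and 477 and 481 FPKM in CharmeKO pools 1 and 2. After TMM scaling the CharmeKO pools were nearly equal, and the genotypes did not overlap. Its mean of 283 ± 16.1 FPKM in CharmeWT (SD, n = 3) stood against 479 ± 2.66 FPKM in CharmeKO (SD, n = 2), a 1.69-fold rise (log2 fold change 0.76, SE 0.17, edgeR adjusted p = 0.0742). Hba-a2, which encodes the same chain from the neighbouring copy, had 195, 181 and 173 FPKM against 306 and 317 FPKM, again without overlap. Its mean rose from 183 ± 11.1 to 312 ± 7.84 FPKM, a log2 fold change of 0.77 (SE 0.16, edgeR adjusted p = 0.0678). The log2 fold changes of Hba-a1 and Hba-a2 were 0.77 and 0.80 without CharmeKO pool 1. They were 0.75 and 0.74 without CharmeKO pool 2. Each of these fits leaves a single CharmeKO pool. Without CharmeWT pool 1, 2 or 3 neither gene was called (edgeR adjusted p of 0.204 to 0.420), while their log2 fold changes stayed between 0.72 and 0.82.

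The beta globins varied far more between pools of one genotype. Hbb-bs, the most abundant of the 9 genes, had 939, 539 and 666 FPKM in CharmeWT pools 1 to 3 and 1791 and 1045 FPKM in CharmeKO pools 1 and 2. CharmeKO pool 1 stood high, while CharmeKO pool 2 was close to the highest CharmeWT pool. The means were 715 ± 204 and 1418 ± 528 FPKM, and the log2 fold change of 0.99 (SE 0.29) did not pass the test (edgeR adjusted p = 0.148). Without CharmeKO pool 1 it was 0.55, and without CharmeKO pool 2 it was 1.32.

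Hbb-bt, the minor adult beta globin in these counts, had 177, 114 and 144 FPKM in CharmeWT and 381 and 237 FPKM in CharmeKO, with the same order of pools as Hbb-bs within each genotype. It rose from 145 ± 31.6 to 309 ± 102 FPKM, a log2 fold change of 1.09 (SE 0.25, 2.13-fold, edgeR adjusted p = 0.0801). The call was lost without CharmeWT pool 1, 2 or 3 (edgeR adjusted p = 0.171, 0.201 and 0.362). The log2 fold change was 0.71 without CharmeKO pool 1 and 1.38 without CharmeKO pool 2.

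Summed over the paired copies, alpha globin mRNA had 495, 461 and 442 FPKM in CharmeWT and 784 and 798 FPKM in CharmeKO, a 1.70-fold difference of the means. Beta globin mRNA had 1116, 653 and 811 FPKM in CharmeWT and 2172 and 1282 FPKM in CharmeKO, a 2.01-fold difference. The highest CharmeWT pool exceeded the lowest 1.12-fold for alpha globin but 1.71-fold for beta globin. The same contrast was seen in CharmeKO, where pool 1 had 0.981 times the alpha globin of pool 2 and 1.69 times its beta globin.

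**Figure D2:**
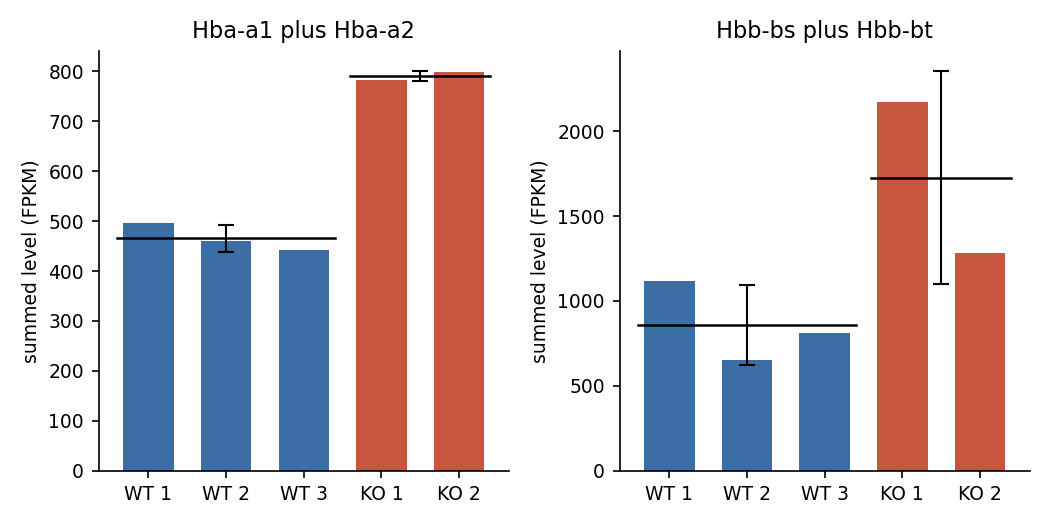
Summed FPKM of the alpha globins Hba-a1 and Hba-a2 (left) and of the beta globins Hbb-bs and Hbb-bt (right) in each pool, with the mean of each genotype as a line and its SD as a bar. After TMM scaling, alpha globin was even within each genotype (442 to 495 and 784 to 798 FPKM), whereas beta globin spread from 653 to 1116 FPKM in CharmeWT and from 1282 to 2172 FPKM in CharmeKO.

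Ratios taken within a pool do not depend on the scaling between pools. A share of all counts still depends on the other genes counted in the pool. These include the 21.1% mitochondrial counts of CharmeKO pool 1 and the 2.58% salivary gland counts of CharmeKO pool 2. The 4 adult globins together took 0.125%, 0.0866% and 0.103% of all counts in CharmeWT pools 1 to 3 and 0.189% and 0.162% in CharmeKO pools 1 and 2. The CharmeKO shares were the higher ones, with means of 0.105% ± 0.0191 (SD, n = 3) and 0.175% ± 0.0189 (SD, n = 2) and an exact permutation p of 0.1 (two-sided), the smallest that 3 pools against 2 allow. The 95% Wilson interval was 0.123% to 0.126% for the highest CharmeWT share and 0.160% to 0.164% for the lower CharmeKO share. Such intervals cover counting error only, since the reads carry no molecular identifiers.

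The balance within and between the globin pairs did not separate the genotypes. The Hba-a1 to Hba-a2 ratio of counts was 1.88, 1.88 and 1.90 in CharmeWT and 1.90 and 1.84 in CharmeKO (exact permutation p = 0.6), so that its highest value was 1.03 times its lowest. The Hbb-bs to Hbb-bt ratio of counts was 5.80, 5.18 and 5.05 against 5.14 and 4.82 (exact permutation p = 0.5). The ratio of alpha to beta globin counts ranged from 0.360 in CharmeKO pool 1 to 0.704 in CharmeWT pool 2, with 0.442 and 0.545 in the other CharmeWT pools and 0.622 in CharmeKO pool 2 (exact permutation p = 0.6). Per length it was nearly the same, at 0.361 to 0.705. With 2 pools in CharmeKO these tests are weak, and the values show only that the ratios overlapped.

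**Figure D3:**
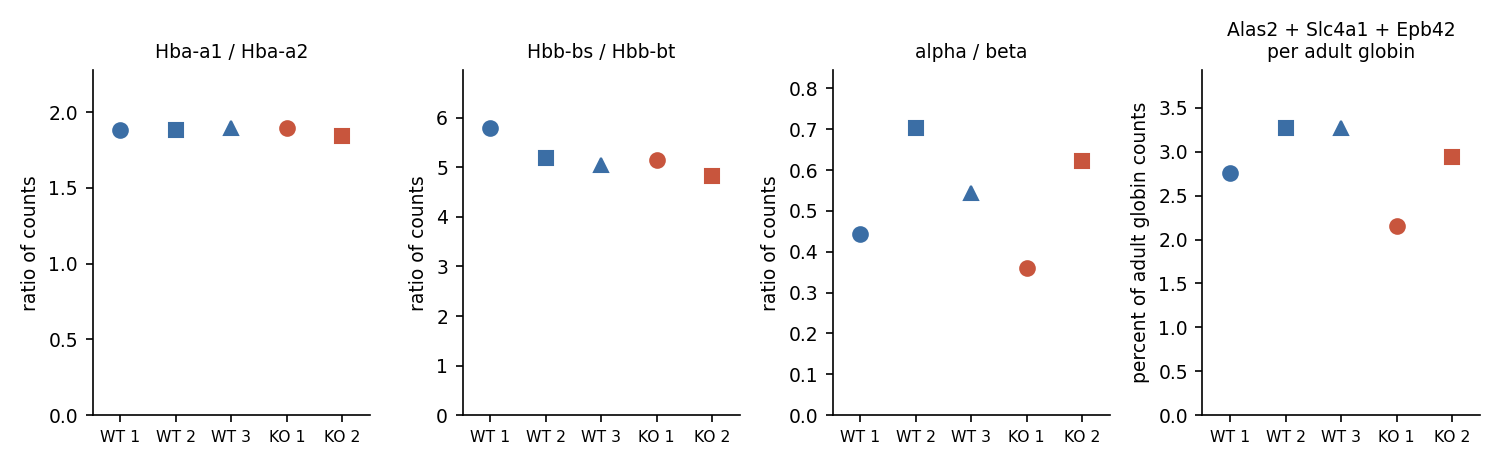
Within-pool ratios of counts for the alpha pair, the beta pair, alpha over beta globin, and the erythroid genes Alas2, Slc4a1 and Epb42 (mostly Alas2) as a percent of adult globin counts, each from 0 and for each of the 5 pools. The alpha pair kept a ratio of 1.84 to 1.90, while alpha over beta ran from 0.360 to 0.704 with the genotypes interleaved.

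The embryonic globin was near the limit of detection. Hbb-y had 4, 6 and 8 counts in CharmeWT pools 1 to 3, 0 in CharmeKO pool 1 and 17 in CharmeKO pool 2, that is 0.194, 0.340 and 0.405 CPM against 0 and 0.762 CPM. The 2 CharmeKO pools were thus the lowest and the highest of the 5, and no fold change or test is given. Of all beta-like globin counts, Hbb-y took 0.0230% to 0.0687% in CharmeWT and 0.0786% in CharmeKO pool 2. In CharmeKO pool 1, 0 of 23193 counts allows a share of up to 0.0129%. Fragments shared by Hbb-bs and Hbb-bt were not counted, whereas Hbb-y had no shared window, so these shares stand too high for Hbb-y. The other 6 embryonic or minor globin genes had fewer than 10 counts in every pool. Of these, Hba-x, the embryonic alpha-like globin, had 3, 3 and 1 counts in CharmeWT and 4 and 8 in CharmeKO, Hbq1b had 4, 3 and 4 against 1 and 2, and Hbq1a had 0, 2 and 3 against 0 and 1. Hbb-bh1, the other early embryonic beta-like globin, had 1 count in all, and Hbb-bh0 and Hbb-bh2 had none in any pool.

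Of the erythroid genes that are not globins, Alas2 (ENSMUSG00000025270, chrX:150547375-150570638, plus strand), the red cell enzyme for the first step of haem synthesis, was the one with a substantial level. It had 13.1, 10.01 and 11.7 FPKM in CharmeWT and 18.7 and 17.9 FPKM in CharmeKO. The genotypes did not overlap, and as for the alpha globins the 2 CharmeKO pools were close to each other after TMM scaling. The means were 11.6 ± 1.56 and 18.3 ± 0.520 FPKM, and the log2 fold change of 0.65 (SE 0.19, 1.57-fold) did not pass the test (edgeR adjusted p = 0.148). The log2 fold change was 0.63 without CharmeKO pool 1 and 0.67 without CharmeKO pool 2.

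Slc4a1 (ENSMUSG00000006574, chr11:102348824-102366203, minus strand), which encodes the anion exchanger band 3 of the red cell membrane, had 0.427, 0.648 and 0.527 FPKM in CharmeWT and 0.594 and 0.568 FPKM in CharmeKO. Both CharmeKO pools lay within the CharmeWT range, and the log2 fold change was 0.12 (SE 0.33, edgeR adjusted p = 0.864). Epb42 (ENSMUSG00000023216, chr2:121017891-121037072, minus strand), which encodes the membrane skeleton protein 4.2, had 0, 6 and 6 counts in CharmeWT and 4 and 7 in CharmeKO, and was not tested. Together, Alas2, Slc4a1 and Epb42 had 2.76, 3.27 and 3.27 counts per 100 adult globin counts in CharmeWT and 2.15 and 2.94 in CharmeKO (exact permutation p = 0.3), so that the genotypes overlapped. Alas2 made up most of these counts, with 650 of 693 in CharmeWT pool 1 and 633 of 678 in CharmeKO pool 1. The ratio therefore says little about the membrane genes Slc4a1 and Epb42.

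By level per length, averaged over CharmeWT pools, the order was Hbb-bs, Hba-a1, Hba-a2, Hbb-bt, Alas2 and Slc4a1, at 715, 283, 183, 145, 11.6 and 0.534 FPKM. Hba-a2 and Hbb-bt overlapped in both genotypes, and the other neighbours in this order did not. Among all genes of a pool, Hbb-bs ranked between 22 and 67 by FPKM and Hba-a1 between 88 and 151, while Alas2 ranked between 2366 and 4045 and Slc4a1 between 12545 and 13501.

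The other genes of the erythroid programme did not follow the adult globins as a group. Over 6 lists, of other globins, haem synthesis, haem and iron supply, membrane, transcription factors, and erythroblast and reticulocyte enzymes, 74 genes besides the 9 were counted and 58 tested. Of these, 1 was called higher and 1 lower, 27 had a positive and 31 a negative log2 fold change, and the median log2 fold change was -0.05, beside 0.02 over all genes tested. In either direction, 2.05% of all genes tested were called. At an unadjusted p under 0.05 the quasi-likelihood test gave 7 of the 58 (12.1%), beside 18.6% of all genes tested. The likelihood ratio test and DESeq2 each called 4 of them, beside 6.27% and 6.81% of all genes tested.

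None of the 9 haem synthesis genes, a list that includes Alas2, was called by the quasi-likelihood test, which gave 1 at an unadjusted p under 0.05, while the likelihood ratio test and DESeq2 each called Alas2. The median log2 fold change was -0.01. The most abundant were Alad, which makes porphobilinogen, Urod, which acts later in the pathway, and Alas1, the form of the first enzyme used outside red cells. Alad had a mean of 47.5 FPKM in CharmeWT and 34.4 FPKM in CharmeKO (log2 fold change -0.47, edgeR adjusted p = 0.282), Urod 36.8 and 34.6 FPKM, and Alas1 28.6 and 24.6 FPKM. Of 13 genes of haem and iron supply 12 were tested and 0 were called (median log2 fold change 0.01), with 1 at an unadjusted p under 0.05. Each of the other tests called 1, Steap3, which was lower in CharmeKO, with means of 6.02 FPKM in CharmeWT and 3.73 FPKM in CharmeKO. This list was led by Hmox2, a haem oxygenase, Glrx5, needed for iron-sulphur clusters, and the transferrin receptor gene Tfrc. They had 31.8, 24.3 and 20.9 FPKM in CharmeWT and 38.8, 23.4 and 19.95 FPKM in CharmeKO.

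Of 20 genes of the red cell membrane and skeleton, a list that includes Slc4a1 and Epb42, 16 were tested, 0 were called higher and 1 lower (median log2 fold change -0.15). The one that fell was Sptb, a beta spectrin gene that is also active in striated muscle. It had 12.4, 10.2 and 12.03 FPKM in CharmeWT and 6.23 and 6.42 FPKM in CharmeKO, a log2 fold change of -0.87 (SE 0.18, edgeR adjusted p = 0.0633). Tmod1, Aqp1 and Gypc, the most abundant of the list, had means of 122, 53.2 and 29.3 FPKM in CharmeWT and 99.0, 48.5 and 25.3 FPKM in CharmeKO, and none was called.

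Of the erythroid transcription factors, Gata1 and Klf1 were at or near the floor of 3 counts, which is 0.134 to 0.213 CPM in these pools. Gata1, the GATA factor of erythroid cells and megakaryocytes, had 4, 2 and 3 counts in CharmeWT and 2 and 10 in CharmeKO, and Klf1, the erythroid KLF factor, had 5, 3 and 7 against 8 and 5. Other factors of the list stood higher. Tal1 had 145, 129 and 189 counts in CharmeWT and 72 and 198 in CharmeKO, and Nfe2 had 10, 19 and 11 against 5 and 21. Of 12 factors 9 were tested, and the quasi-likelihood test, the likelihood ratio test and DESeq2 each called 0 (median log2 fold change -0.22, 1 at an unadjusted p under 0.05). Those with the highest levels, Ldb1, Zfpm1 and Lmo2, are also active outside red cells, and had means of 36.9, 22.1 and 9.24 FPKM in CharmeWT and 27.8, 14.0 and 9.25 FPKM in CharmeKO.

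Of 18 genes of erythroblast and reticulocyte enzymes and remodelling, 14 were tested, 1 was called higher and 0 lower (median log2 fold change 0.20). The gene called was Isg20, an exonuclease also induced by interferon, with 1.17, 0.761 and 0.680 FPKM in CharmeWT and 2.13 and 2.80 FPKM in CharmeKO (2.83-fold, log2 scale SE 0.35, edgeR adjusted p = 0.0906). The most abundant were the peroxiredoxin gene Prdx2, the mitophagy receptor gene Bnip3l and the biliverdin reductase gene Blvrb, at means of 153, 25.7 and 9.42 FPKM in CharmeWT and 172, 30.1 and 12.1 FPKM in CharmeKO. None of the 3 was called. Hemgn, an erythroid nuclear protein gene, had 4, 1 and 1 counts against 5 and 5, and the red cell carbonic anhydrase gene Car1 had 0 counts in every pool but 1 count in CharmeKO pool 2.

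**Figure D4:**
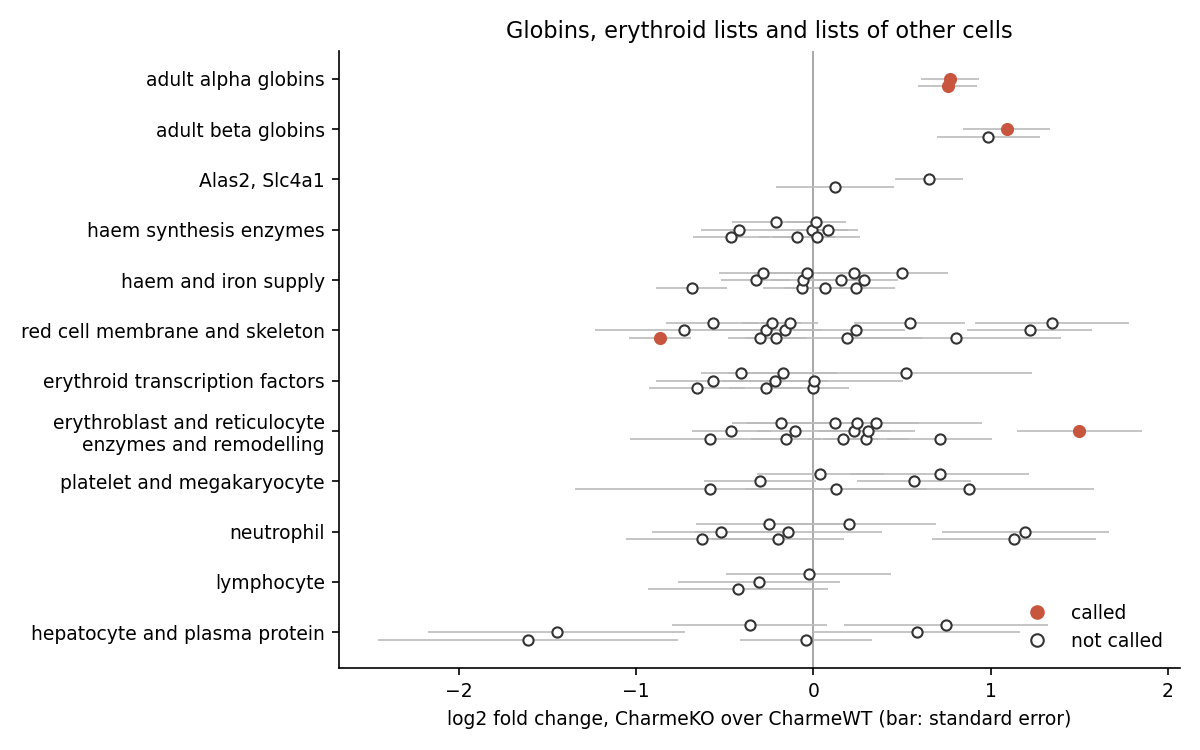
Log2 fold change of CharmeKO over CharmeWT, with its SE as a bar, for each tested gene of the globins, the erythroid lists and lists of other blood and liver cells. Filled points were called: Hba-a1, Hba-a2 and Hbb-bt among the globins, Sptb on the lower side and Isg20 on the higher side.

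Other cells of the blood and the liver were read in the same pools. Of 10 platelet and megakaryocyte genes 7 were tested and 0 called (median log2 fold change 0.13), and their levels summed to 12.8 to 17.2 FPKM in CharmeWT and 17.1 and 26.6 FPKM in CharmeKO. The most abundant, Pf4, had 13.9, 8.87 and 12.2 FPKM in CharmeWT and 11.6 and 22.7 FPKM in CharmeKO, so that the genotypes overlapped. Of 10 neutrophil genes 8 were tested and 0 called (median -0.17, 24.98 to 46.7 FPKM in sum against 23.8 and 41.9). The neutrophil calgranulin genes S100a9 and S100a8, the most abundant of that list, had means of 19.3 and 8.92 FPKM in CharmeWT and 17.0 and 7.70 FPKM in CharmeKO.

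Of 10 lymphocyte genes 3 were tested and 0 called (median -0.31, sums of 2.18 to 3.65 against 1.77 and 2.76 FPKM). Hepatocyte and plasma protein genes, read because the liver holds erythroblasts around birth, summed to 7.95 to 11.4 FPKM against 7.11 and 10.1 FPKM, with 6 of 10 tested and 0 called. Their leading gene Ahsg had means of 5.27 and 5.11 FPKM. Heart markers were abundant in every pool. The 10 cardiomyocyte genes summed to 17050 to 23070 FPKM in CharmeWT and 20696 and 23286 FPKM in CharmeKO, with 0 called, and 10 endothelial genes to 278 to 327 against 219 and 272 FPKM, with 0 called. The quasi-likelihood test thus called 0 genes of these 6 lists. At an unadjusted p under 0.05, which 18.6% of all genes tested passed, it gave 1 cardiomyocyte and 3 endothelial genes. Of the other lists it gave 2 neutrophil genes and 0 platelet, lymphocyte or hepatocyte genes. The cardiomyocyte gene was Myl7, at means of 499 FPKM in CharmeWT and 912 FPKM in CharmeKO. The likelihood ratio test and DESeq2 each called 1 cardiomyocyte and 1 endothelial gene, the latter being Cldn5 at means of 55.4 and 34.1 FPKM. The part of other cells in the globin difference was not tested.

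The genes whose profile over the 5 pools was nearest to that of the summed adult globins were found among 11560 tested genes with a mean of at least 1 FPKM. Likeness was the root mean square difference between log2 CPM values centred on their mean, and is a description of 5 pools without a test. The nearest were Ube2l6, a conjugating enzyme gene for the ubiquitin-like protein ISG15, at 0.0522, Nop58, a core protein gene of box C/D small nucleolar particles, at 0.0734, and S100a10, an annexin partner gene, at 0.0813. Ube2l6 had 22.1, 14.5 and 17.7 CPM in CharmeWT and 44.8 and 28.9 CPM in CharmeKO, and S100a10, which was called (edgeR adjusted p = 0.0633), had 73.2, 51.2 and 54.0 CPM against 133 and 107 CPM. Rnaseh2b, Zfp932, Pop4, Rpl23a, Itgb3bp, Psip1 and Eif1a followed, up to 0.107. By the same measure Hbb-bt stood at 0.105, Hbb-bs at 0.122, Alas2 at 0.207, Hba-a1 at 0.227, Hba-a2 at 0.235 and Slc4a1 at 0.526. The genes listed before these were the nearest of 11560, whereas the globins and erythroid genes were fixed beforehand. The adult globins are also part of the sum. The distances of these groups of genes therefore cannot be set against each other.

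How the calls moved with the setting can be read from the plot of log2 fold changes by setting. The number of globins and erythroid genes called, 3 of 6 with all pools, was 2 without CharmeKO pool 1 (Hba-a1 and Hba-a2), 5 without CharmeKO pool 2 (adding Hbb-bs and Alas2), and 0 without any one CharmeWT pool. The likelihood ratio test and DESeq2 each called 5, with 3.92% and 3.96% of all genes tested called higher. All 4 adult globins and Alas2 had a positive log2 fold change in each of the 16 alternative settings. The number of all genes called also changed: 4607 genes were called without CharmeKO pool 2 (31.7% of those tested), 639 without CharmeKO pool 1 (4.33%), 2 without CharmeWT pool 1, 187 without CharmeWT pool 2 and 0 without CharmeWT pool 3.

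**Figure D5:**
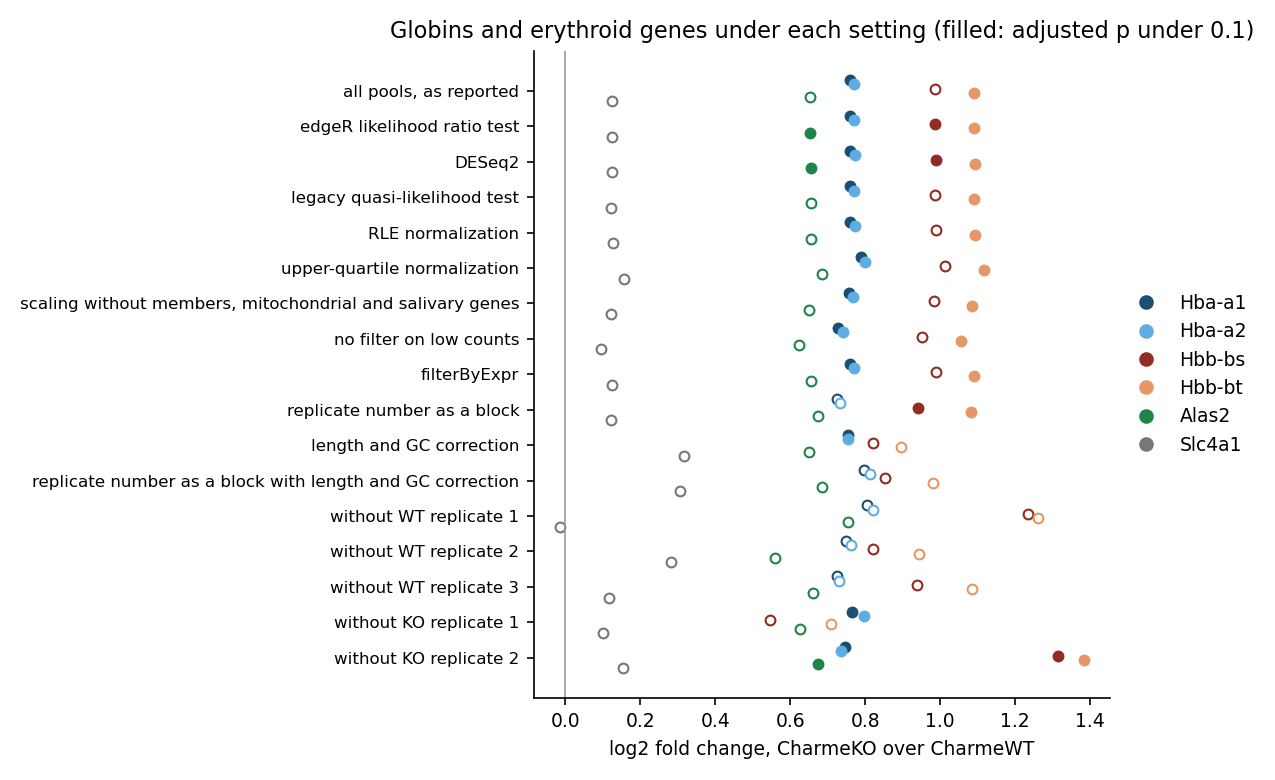
Log2 fold change of CharmeKO over CharmeWT for the 6 tested genes under each setting, filled where the adjusted p was under 0.1. Hba-a1 and Hba-a2 stayed between 0.72 and 0.82, Hbb-bs ran from 0.55 to 1.32 and Hbb-bt from 0.71 to 1.38, with the lowest values without CharmeKO pool 1 and the highest without CharmeKO pool 2.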

How the data were processed

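Total RNA of pooled hearts was made into stranded mRNA libraries and sequenced in paired reads of 150 nucleotides. The authors trimmed reads with Cutadapt and Trimmomatic, used STAR on GRCm38, and counted uniquely mapped fragments per gene of Ensembl release 87 on the reverse strand. The deposited counts are raw whole numbers. The deposited table of FPKM values, written with decimal commas, was used as an alternative for ratios, and FPKM were otherwise computed from the counts.

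Gene models came from GENCODE M21 on GRCm38, and promoters from RefSeq. Genes reaching 10 counts in 2 or more pools were kept, TMM-normalized and tested for genotype by edgeR 4.0.16 (quasi-likelihood, legacy=FALSE, R 4.3.3), with Benjamini-Hochberg adjustment over all 14880 genes. The filter and the thresholds are those of the study, whose test was the likelihood ratio test. Genes without a known length, 23 of those tested, were given 1000 bases. Standard errors are the log2 fold change over the square root of F. Single values per pool were compared by exact permutation of 10 assignments. The code was tested on simulated counts.

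Named were the 9 genes, Charme, in each list those called and the 3 of highest mean FPKM, and the 10 nearest profiles. Genes named to show that markers were low (Gata1, Klf1, Hemgn, Car1), Tal1, Nfe2, Steap3, Myl7 and the remaining globins were chosen with values known. The 9 genes, the lists and the motifs were chosen with earlier results of these data known. Salivary genes Smgc, Prol1, Dcpp1, Dcpp3 and Mucl2, and Myl2, Myl3, Actc1, Cdh5, Pecam1 and the lesser genes of the blood and liver lists, were selected by the rule but are not detailed. Alternatives were DESeq2 1.42.0, the likelihood ratio and legacy tests, RLE and upper-quartile scaling, scaling without these genes and the mitochondrial and salivary genes, other filters and thresholds, the replicate number as a block, and each pool left out. Corrections for length and GC content were added after seeing the data.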

Additional observations from a re-analysis of the deposited data

How the results depend on the processing

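Of the 6 genes tested, 3 were called with all pools, as with RLE or upper-quartile scaling, scaling without these genes and the mitochondrial and salivary genes, no filter, filterByExpr, no FPKM filter and the legacy test. The number was 0 at an adjusted p under 0.05 (111 genes of all tested then remained called), and 5 in both the likelihood ratio test and DESeq2, which added Hbb-bs (adjusted p = 0.0424 and 0.0214) and Alas2 (0.0681 and 0.0641). These 2 tests called 933 and 1014 genes in all, against 305. With length and GC correction, chosen after seeing the data, it was 2, without Hbb-bt (edgeR adjusted p = 0.121). Leaving out each pool gave 0 to 5. The labels do not say that replicate numbers pair pools, and deviations of pools with the same number correlated at 0.137 and 0.0778 across genes. With the replicate block 2 of the 6 were called, Hbb-bs and Hbb-bt (edgeR adjusted p = 0.0838 and 0.0375), while Hba-a1 and Hba-a2 were not (0.139 and 0.134, log2 fold changes 0.72 and 0.73), and with the block and length and GC correction 0 were called. These 2 fits and length and GC correction alone called 210, 33 and 362 genes in all. Over the other erythroid lists the count of called genes was 2 with all pools, 4 under either of the likelihood ratio test and DESeq2, 1 by the legacy test, 0 with the replicate block, 1 with length and GC correction, 0 with both, and 0 to 18 over pools left out, the 18 being 32.7% of those tested without CharmeKO pool 2, beside 31.7% of all genes tested there. The log2 fold change of Slc4a1 ran from -0.014 without CharmeWT pool 1 to 0.28 without CharmeWT pool 2. Differences of means, CharmeKO minus CharmeWT, over pools left out ran from -0.203 to 0.0581 for the alpha to beta ratio (positive without CharmeKO pool 1) and from -0.0406 to 0.0113 for the Hba-a1 to Hba-a2 ratio (positive without CharmeKO pool 2), beside -0.0726 and -0.0146 with all pools. The cause of these changes was not tested, except that leaving out a pool leaves fewer samples. With 0 to 17 counts per pool, depth does not allow a comparison of Hbb-y.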
